A study of Mus musculus with 35 samples.

Results

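The 6 genes described here encode the endothelin system: the peptide ligands *Edn1* and *Edn3*, the converting enzymes *Ece1* and *Ece2*, and the receptors *Ednra* and *Ednrb*. They were chosen by name from the 53465 genes listed in the bulk table, and all 6 were found both there and in the single-cell tables. They were followed in populations sorted from E14.5 mouse brain by EMBRACE, a FACS protocol that separates neural, mural, endothelial and microglial cells. Bulk RNA-seq covered 12 libraries, with 3 of each population, labelled N (neural), Mu (mural), Ec (endothelial) or Mi (microglial) with a number, as in N-340, Mu-343 and Ec-346. Single-cell RNA-seq covered 3 plates of wild-type wells, in which the sort gate of each well is recorded. Another 3 plates, labelled as *Mof* knockout and with no gate recorded, entered no test. Neural cells of the bulk sort were taken as negative for every surface marker used. For neural single cells the study's list of negative markers does not name CD11b. Mural cells were taken by high PDGFRβ without the endothelial and immune markers, and endothelial cells by PECAM1 with CD102. Microglia had medium CD45, together with CD11b in the bulk sort. The gates recorded for the plates name CD41 with it, whereas the study's text names CD11b there too. The bulk libraries are described as coming from 3 wild-type brains, from each of which the 4 populations were collected together, so libraries that share a number were taken as coming from 1 brain. The neural libraries were made with another kit than the other 9, so kit and population cannot be told apart in any difference between neural cells and the rest. Whether the brains came from separate litters is not stated, so p-values measure only the spread between these samples. The labels of the plates name no brain, so a plate need not be a separate animal. In bulk samples fewer cells of a type and less RNA per cell cannot be told apart.

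Endothelins are made as long precursors, which proprotein convertases such as furin trim to big endothelin and which endothelin-converting enzymes cut to the active peptide. *Ednra* binds endothelin-1 in preference to endothelin-3, couples mainly to Gq and constricts vessels when active on smooth muscle. *Ednrb* binds all endothelins, is known for nitric oxide release from endothelium and for neural crest development, and in the brain is known in astrocytes and their precursors.

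Reads on genes ran from 17638358 to 98414914 per bulk library, and 1 read was worth 0.264 to 1.77 normalized counts. The populations carried their own markers. The 5 neural markers summed to 82626 to 91373 normalized counts in neural libraries and at most 3205 elsewhere. The summed level of 5 endothelial markers (*Pecam1*, *Kdr*, *Cdh5*, *Cldn5* and *Tek*) was 127116 to 140440 normalized counts in endothelial libraries and at most 3115 elsewhere. The 5 mural markers summed to 650216 to 691140 in mural libraries and at most 6877 elsewhere. The 5 microglial markers summed to 158273 to 187022 in microglial libraries and at most 111 elsewhere. The 6 erythroid genes, none at 0 in all 3 endothelial libraries, summed to 9802 to 25421 in these, 6478 to 8955 in neural, 1318 to 1773 in microglial and 182 to 450 in mural libraries. Their part in the endothelial *Edn1* and *Ece1* levels was not tested in bulk. In the endothelial gate of the single cells the 2 of these genes in the files stood at 2.4 CPM. Of 994 wells in the 4 gates, 686 cells had more than 1500 transcripts and were kept, with a median of 7576 transcripts. They comprised 123 neural, 210 mural, 225 endothelial and 128 microglial cells, and plate 3 gave only 6 to 14 cells of each gate. The 14 neural and 6 microglial cells of plate 3 come from 1 library whose number differs between its title and the list of wells and which was matched through the number in its deposited file. Without plate 3 *Ednrb* was still called higher in the neural gate (adjusted p = 0.0222, edgeR) and *Edn1* in the microglial gate (adjusted p = 0.00577).

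Promoters are given for the ligand and the 2 receptors, whose levels separate the populations, from RefSeq on GRCm38.p6, from 250 bases before to 50 bases after the annotated start, on the gene's own strand. Capitals mark matches, on either strand, to any of 7 short motifs: the GATA core (GATAA), the AP-1 site (TGANTCA), the ETS core (GGAAG), the hypoxia response core (ACGTG), the GC box (GGGCGG), the TATA box (TATAAA) and the SOX core (ACAAT). The windows are chr13:42301226-42301525 on the plus strand for *Edn1*, chr8:77724403-77724702 on the minus strand for *Ednra*, and chr14:103843652-103843951 on the minus strand for *Ednrb*.
Edn1: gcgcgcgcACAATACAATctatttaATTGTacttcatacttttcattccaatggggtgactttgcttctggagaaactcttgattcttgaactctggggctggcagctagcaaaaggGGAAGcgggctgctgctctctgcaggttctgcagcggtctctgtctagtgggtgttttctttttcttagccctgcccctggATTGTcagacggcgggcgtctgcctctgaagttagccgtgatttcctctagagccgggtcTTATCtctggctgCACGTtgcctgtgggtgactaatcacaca
Ednra: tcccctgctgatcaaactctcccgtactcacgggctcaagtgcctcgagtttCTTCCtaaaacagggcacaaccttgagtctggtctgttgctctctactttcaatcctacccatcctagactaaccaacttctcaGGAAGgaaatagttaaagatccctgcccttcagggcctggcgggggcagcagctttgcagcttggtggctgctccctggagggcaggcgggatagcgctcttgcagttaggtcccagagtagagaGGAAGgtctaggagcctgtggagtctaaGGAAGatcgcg
Ednrb: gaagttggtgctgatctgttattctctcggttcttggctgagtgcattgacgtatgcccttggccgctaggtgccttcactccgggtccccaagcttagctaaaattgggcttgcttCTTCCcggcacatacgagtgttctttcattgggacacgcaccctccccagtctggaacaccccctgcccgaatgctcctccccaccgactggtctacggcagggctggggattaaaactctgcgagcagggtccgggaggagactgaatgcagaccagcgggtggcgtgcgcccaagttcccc
The *Edn1* window held 1 match to the GATA core, 1 to the ETS core, 1 to the hypoxia response core and 4 to the SOX core, of which the first 2 abutted and none overlapped another motif. The *Ednra* window held 4 matches to the ETS core and the *Ednrb* window held 1, and neither held any of the other motifs. Among 32851 promoter windows of the same length, 25.4% held the GATA core, 7.81% the AP-1 site, 71.4% the ETS core, 19.6% the hypoxia response core, 35.7% the GC box, 13.6% the TATA box and 31% the SOX core. None of the 9 windows of the 6 members held the AP-1 site or the TATA box, and the single *Edn3* window held none of the 7 motifs. Bases outside the windows were not searched, so a site further from an annotated start would be missed. In *Edn1* the GATA core and the hypoxia response core lay after the annotated start, at +9 and +22. The 4 annotated starts of *Ece1* had windows of 53% to 69.3% GC, against a median of 52.7% over all windows. The GC box was found at 3 of those 4 starts and at the start of *Ece2*. These matches describe letters in a window and show nothing of binding.

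Set against the mean of the other 3 populations, each vascular population carried a different side of the system. Endothelial cells held the ligand *Edn1* and the enzyme *Ece1*, and mural cells held the receptor *Ednra*. *Ednrb* was highest in neural cells but was spread over several populations. Of the 5 members with enough reads to be tested in bulk, 2 were called higher in endothelial cells (*Edn1* and *Ece1*), where 19.7% of the 19765 genes tested were called higher. Only *Ednra* was called higher in mural cells, against 19.3% of all genes. In neural cells *Ednrb* and *Ece2* were called higher, against 32.9% of all genes. In microglia no member was called higher by limma at an adjusted p under 0.05, against 23.4% of all genes. *Edn1* there had an unadjusted p of 0.0409, and neither edgeR nor DESeq2 on the recovered reads called a member. Neural cells had 3 members called lower (31.2% of all genes), the mural population 1 (22.7%), the endothelial population 2 (22.4%) and the microglial population 2 (22.3%). With 5 genes these counts are not read beyond the genes they name.

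**Figure D1:**
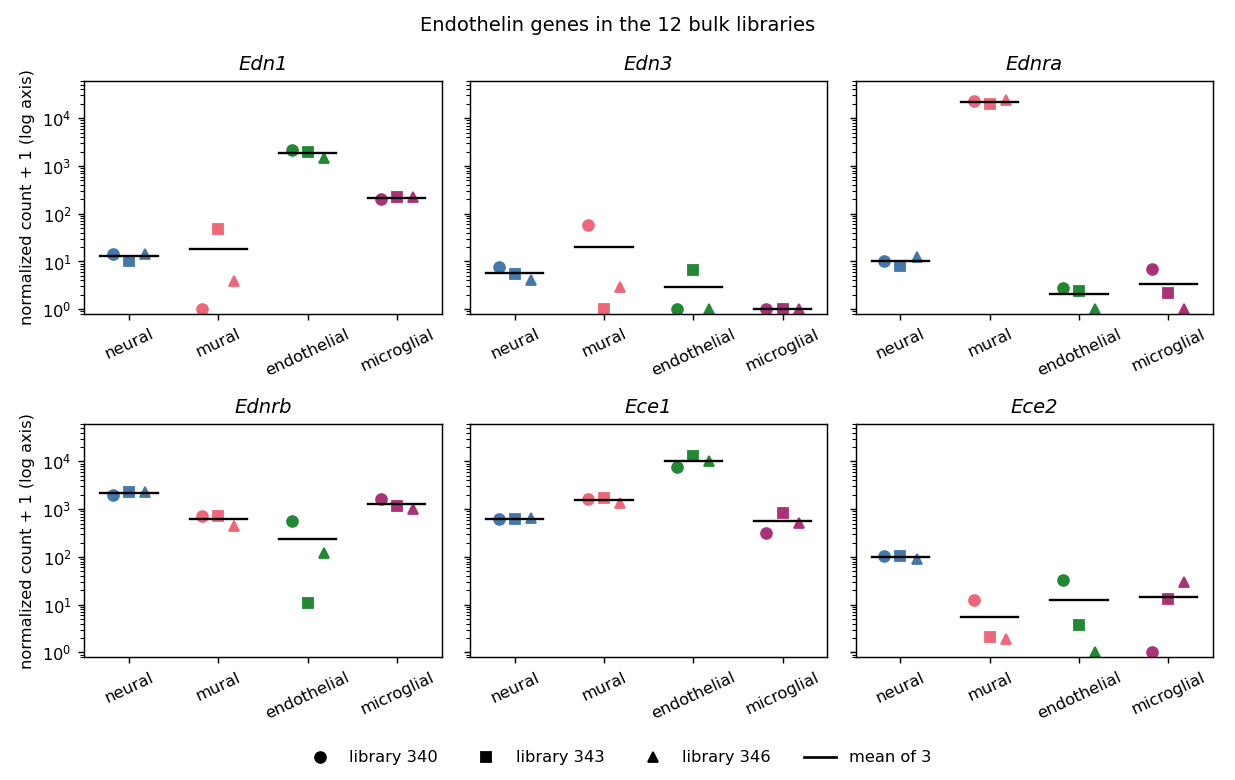
Normalized counts of the 6 members in the 12 bulk libraries (normalized count plus 1, log axis), 1 panel per gene, with a point for each library and a bar at the mean of 3. The 3 mural libraries hold *Ednra* at 20036 to 23905, and no other library exceeds 11.4.

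*Edn1*, the precursor of endothelin-1, lies at chr13:42301476-42307990 on the plus strand (ENSMUSG00000021367, GRCm38). Its normalized counts were 2158, 1933 and 1484 in endothelial libraries, with a mean of 1859 (n = 3). Microglial libraries followed at 198.5, 220.6 and 220.3, a tight 213 ± 12.7 (SD, n = 3). Mural libraries held 0, 47.9 and 2.8, and neural libraries 13.4, 9.4 and 13.2. The endothelial libraries thus lay above all others and the microglial libraries above every mural and neural library. On the scale of log2(normalized count + 1), endothelial cells exceeded the mean of the other 3 populations by 6.20 (SE 0.887, adjusted p = 2.93e-04). The size depends on the pseudocount for so low a gene elsewhere, at 6.65 with 0.1 and 5.67 with 5 in place of 1.

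Against microglia *Edn1* was lower in neural cells, by -4.06 on the same log2 scale (adjusted p = 0.00763, lost in 2 of 23 alternatives), and in mural cells, by -5.22 (adjusted p = 0.00295, lost in 1 of 24). The endothelial and microglial libraries, which do not overlap, differed by 3.10 (SE 1.09, adjusted p = 0.0494). That call was lost in 18 of 24 alternatives (adjusted p from 0.00141 to 0.231), 10 of which left out a single library. Among these 10 were N-340, N-343, N-346 and Mu-346, without which the difference was still 3.1. The SE is pooled over the 4 populations, the uneven mural libraries included. With the brain as a replicate block the adjusted p of this difference was 0.0593. Mural and neural cells, the lowest pair, were not called different (adjusted p = 0.392). Without Mu-343 they were (adjusted p = 0.00394), and microglia were then called higher than the mean of the rest, by 2.58 (adjusted p = 0.00105). Mean *Edn1* in microglia was 11.5% of the endothelial mean. The summed endothelial markers in microglia, at 955 to 1506, were 0.928% of theirs. *Pecam1*, *Kdr* and *Cdh5* carried that sum, whereas *Cldn5* held 0, 0 and 3.78 and *Tek* 1.19, 0 and 0 normalized counts in the 3 microglial libraries. Their part in the microglial level was not tested.

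In the single cells *Edn1* was again an endothelial transcript. At least 1 transcript was found in 50 of 225 endothelial cells, or 22.2% (exact 95% interval 17 to 28.2), and 40 of these cells held only 1 or 2. By plate the share was 20%, 27.2% and 7.69%. Neural cells, with a median of 7717 transcripts against 6408, gave 0 of 123, which allows up to 2.95% of cells with a transcript and sets no limit on cells that express the gene. Mural cells gave 2 of 210. After each cell was thinned to 1500 transcripts the endothelial share was 7.11%. Summed over the gate, endothelial cells held 59.4, 59.7 and 14.2 CPM (transcripts per 1000000) on the 3 plates, and edgeR placed them 4.97 log2 units above the mean of the other gates (SE 0.522, adjusted p = 1.04e-11).

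Microglial cells held 7.4, 20.2 and 0 CPM of *Edn1* on the 3 plates. *Edn1* was called higher there than the mean of the other 3 gates, by 2.42 (adjusted p = 0.00619, range over alternatives 0.0056 to 0.25), a mean that includes the neural gate at 0. Only 5 of 128 cells carried it, and 1 cell held 12 of the 18 transcripts. That cell had 5170 CPM of the microglial markers and none of the endothelial ones. Without the cell with most transcripts in each gate the microglial difference was 1.18 and not called (adjusted p = 0.25). All 5 cells held microglial markers, and together they held 2 transcripts of the endothelial list.

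*Edn3*, the precursor of endothelin-3 (chr2:174760619-174784042, plus strand, ENSMUSG00000027524), was close to absent. Mu-340, the deepest mural library, held 55.9 normalized counts, whereas Mu-343 and Mu-346 held 0 and 1.9. Neural libraries held 6.7, 4.4 and 3.2, Ec-343 held 5.7, and the other endothelial libraries and all 3 microglial libraries were listed at 0. The mean over 12 libraries fell under the minimum of 10 normalized counts, so *Edn3* was not tested. Among 686 single cells it was seen in 1 mural and 1 endothelial cell. *Edn2*, the remaining ligand, had 14 reads in all over the neural libraries, 5 over the microglial ones and 0 over the mural and endothelial ones.

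*Ece1*, the membrane metalloprotease that cuts big endothelin (chr4:137862237-137965229, plus strand, ENSMUSG00000057530), was found in every bulk library and was highest in endothelial cells. These held 7543, 12693 and 10049 normalized counts, a mean of 10095 ± 2575 (SD, n = 3). Mural libraries came next at 1603, 1708 and 1374. Neural libraries held 607.6, 627.4 and 645.9, and microglial libraries 315, 846.7 and 507.4, so that neural values lay within the microglial range. Scaled by exon length to a fixed sum over genes (a TPM-like level) they did not, at 18.8, 19.4 and 19.6 in neural and 3.74, 11.9 and 8 in microglial libraries. Endothelial cells exceeded the mean of the others by 3.63 log2 units (SE 0.255, adjusted p = 1.96e-06), a call kept in all 24 alternatives. In the order of levels, endothelial exceeded mural cells (2.67, adjusted p = 1.05e-04) and mural exceeded neural cells (1.31, adjusted p = 0.0045, or 0.06 without the 4 libraries of the brain of N-346). Neural cells and microglia were not called different (adjusted p = 0.453).

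Single cells gave the same order at its top. *Ece1* was found in 128 of 225 endothelial cells, or 56.9% (exact 95% interval 50.1 to 63.5). The share was 10% in mural, 4.07% in neural and 3.91% in microglial cells, although microglia were the deepest cells, with a median of 10761 transcripts against 6408. The endothelial plates held 175, 168 and 128 CPM, and the highest plate of any other gate, the 14 neural cells of plate 3, held 32.8. The endothelial difference was 4.52 log2 units (SE 0.308, adjusted p = 4.9e-19). Of the 50 endothelial cells with an *Edn1* transcript, 36 also held *Ece1*. In no cell of another gate were both found.

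*Ece2*, a related enzyme known mainly from neural tissue (chr16:20629828-20646485, plus strand, ENSMUSG00000022842), was low in all populations. Neural libraries held 101.5, 104.7 and 87.7 normalized counts, above every other library. Elsewhere values ran from 0 to 31.9 and were uneven, with endothelial libraries at 31.9, 2.8 and 0 and microglial libraries at 0, 11.9 and 29. Neural cells exceeded the mean of the rest by 4.26 (SE 1.19, adjusted p = 0.00907). The call was lost without the 4 libraries N-343, Mu-343, Ec-343 and Mi-343 (adjusted p = 0.098). Against single populations the neural call was less stable, being lost in 6 of 22 alternatives for mural cells (adjusted p = 0.018), 10 of 22 for endothelial cells (0.0263) and 16 of 22 for microglia (0.0445). With the brain as a replicate block the last had an adjusted p of 0.0687. A readthrough gene on the same strand, *Gm49333*, shares 57.5% of the exon bases of *Ece2* and is listed at 0 in all 12 libraries, so the counting of reads between them is uncertain. In single cells *Ece2* did not pass the filter on low counts. It was found in 5.69% of neural, 5.24% of mural, 9.78% of endothelial and 11.7% of microglial cells, shares whose intervals overlap. The neural gate held 7.25 CPM, the mural 8.38, the endothelial 14.4 and the microglial 12.4, so that the neural gate was lowest there and highest in bulk. This order was not tested.

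*Ednra*, the receptor through which endothelin-1 contracts smooth muscle (chr8:77663031-77724464, minus strand, ENSMUSG00000031616), was the member most confined to 1 population. Mural libraries held 23093, 20036 and 23905 normalized counts, a mean of 22344 ± 2040 (SD, n = 3). Neural libraries held 9.3, 7.2 and 11.4, endothelial libraries 1.8, 1.4 and 0, and microglial libraries 5.9, 1.2 and 0. The mural difference was 12.59 on the log2(normalized count + 1) scale (SE 0.610, adjusted p = 2.04e-07), and it was called in all 24 alternatives. It was 13.6 with a pseudocount of 0.1 and 11.4 with 5. Endothelial cells and microglia, the lowest pair, were not called different (adjusted p = 0.742). Neural cells exceeded endothelial cells by 2.43 (adjusted p = 0.0165, lost in 5 of 23 alternatives) and microglia by 2.04 (adjusted p = 0.0353, lost in 10 of 23), at no more than 11.4 normalized counts.

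On the TPM-like level, scaled by merged exon length, *Ednra* in mural cells stood at 401 ± 75.9 (SD, n = 3), the 243rd highest level of 21942 protein-coding genes. On that scale *Ece1* in endothelial cells was at 143 ± 45.4, *Ednrb* in neural cells at 83.2 ± 6.54 and *Edn1* in endothelial cells at 64.7 ± 13.4. The order of these 4 levels was the same per length of the longest transcript, at 490, 133, 65.9 and 54.7.

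*Ednra* was also the member seen in most single cells. It was present in 80% of mural cells (168 of 210, with an exact 95% interval of 73.9 to 85.2), with a median of 3 transcripts per cell. Of the 210 cells 42 held none, 61 held 1 or 2, 53 held 3 or 4, and 54 held 5 or more. The plates held 394, 417 and 412 CPM. Thinned to 1500 transcripts, 44.8% of mural cells still held it. Neural and microglial cells, in which bulk libraries held at most 11.4 normalized counts, gave 2.44% and 2.34%, at medians of 7717 and 10761 transcripts against 6885 in mural cells. The mural difference was 6.19 log2 units (SE 0.327, adjusted p = 4.21e-23).

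Endothelial cells held 14.6, 4.71 and 99.8 CPM of *Ednra*, the last from 7 transcripts in 2 of 13 cells on plate 3. The 10 endothelial cells with *Ednra* held 5553 CPM of the 5 mural markers, against 124.7 CPM in the 215 cells without it. Only 6 of the 10 held any of these markers, and 1 cell held 10 of the 24 *Ednra* transcripts. In those 10 cells the endothelial markers stood at 2666 CPM, against 3980 CPM. The part of such cells in the endothelial value was not tested. The 42 mural cells without *Ednra* held 4715 CPM of mural markers, against 10591 CPM in the 168 cells with it, and 820.5 against 30.76 CPM of the neural markers. They were also shallower, with a median of 4501 transcripts against 7385.

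**Figure D2:**
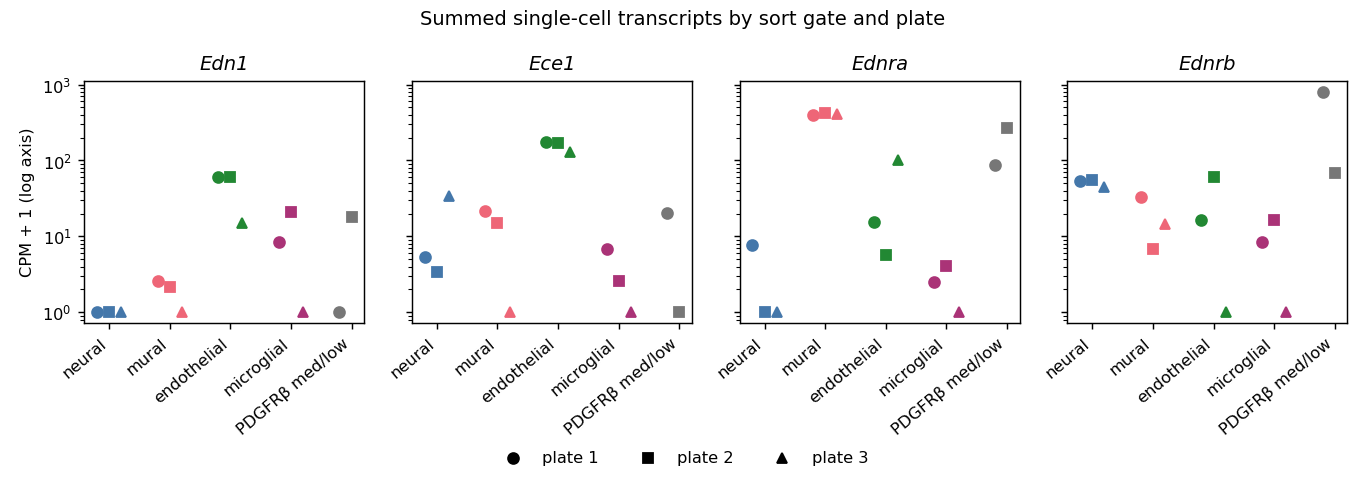
Summed transcripts of 4 members by sort gate and plate (CPM plus 1, log axis), for the 4 gates and for wells of the PDGFRβ medium or low gate. Mural cells hold *Ednra* at 394 to 417 CPM on every plate, and the PDGFRβ medium or low wells of plate 1 hold *Ednrb* at 796 CPM.

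*Ednrb* (chr14:103814625-103844402, minus strand, ENSMUSG00000022122), the receptor for all endothelins, was spread over several populations, with its highest level in neural libraries. Neural libraries held 1967, 2275 and 2296 normalized counts, a mean of 2180 ± 184 (SD, n = 3). Microglial libraries held 1639, 1136 and 983.2, and mural libraries 732.7, 700.8 and 436.7. Endothelial libraries spread from 574.1 in Ec-340 through 122.2 in Ec-346 to 9.9 in Ec-343. Neural libraries lay above all others, whereas Ec-340 lay above the lowest mural library. Neural cells exceeded the mean of the rest by 2.41 log2 units (SE 0.856, adjusted p = 0.0289). This call was lost in 5 of 22 alternatives, with adjusted p from 0.00179 to 0.2. They were quantile normalization (0.0558), N-340, N-343 or N-346 left out alone (0.0724, 0.0819 and 0.0842), and all 4 libraries numbered as N-346 left out (0.2).

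Endothelial cells had less *Ednrb* than the mean of the rest, by -3.68 (SE 0.856, adjusted p = 0.00582), a call lost in 1 of 23 alternatives, without the brain of N-346 (adjusted p = 0.0716). The size rests on which endothelial libraries are used, at -5.00 without Ec-340 and -2.14 without Ec-343. Their summed radial glia markers were 32385, 31391 and 40355 in Ec-340, Ec-343 and Ec-346. That list is not particular to neural cells in bulk, since it summed to 40478 to 62819 in mural and 47248 to 51971 in neural libraries. *Slc1a3*, one of its genes, stood at 1.77, 2.84 and 3.02 in the endothelial libraries and at 2754 to 3225 in the neural ones. *Fabp7*, another, stood at 1311, 471 and 1727 in Ec-340, Ec-343 and Ec-346, so that its lowest value was in the library with least *Ednrb*, and its highest was not in the library with most. The 5 neural markers summed to 2130, 2417 and 3122 in the same libraries, lowest in the library with most *Ednrb*. The part of neural RNA in the uneven endothelial level was not tested. Between neighbours in the order of levels limma called no difference. Adjusted p was 0.521 for neural against microglial, 0.49 for microglial against mural and 0.0767 for mural against endothelial cells. The last was called without Ec-340 (adjusted p = 0.00401). Neural against mural cells was not called (1.84, adjusted p = 0.163), but was without Ec-343 (0.00892) or Ec-340 (0.0457). The spread behind each p-value is pooled over the 4 populations, the uneven endothelial libraries included, and is not that of the pair alone. On the TPM-like level the neural mean of *Ednrb* was 83.2 ± 6.54, the microglial 21.1 ± 2.71 and the mural 14.1 ± 2.98 (SD, n = 3), a wider gap between neural cells and microglia than on normalized counts, with no overlap on either scale. No test was run on that level. Neural exceeded endothelial cells by 4.57 (adjusted p = 0.00339, or 0.0615 without the brain of N-346) and endothelial cells lay below microglia by -3.74 (adjusted p = 0.0183, lost in 4 of 23 alternatives, among them without Mi-340, adjusted p = 0.0603).

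Over the 6 pairs of populations, members called different in either direction numbered 3 of 5 for neural against mural cells (54.6% of all genes), 5 for neural against endothelial cells (57.7%) and 3 for neural cells against microglia (59.8%). They numbered 3 for mural against endothelial cells (27.8%), 3 for mural cells against microglia (38%) and 3 for endothelial cells against microglia (32.4%). *Ednra*, *Edn1* and *Ece1* were each called in 5 of the 6 pairs. *Ece2* accounts for 1 call in each of the 3 pairs with neural cells, with the losses given above.

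In single cells *Ednrb* was sparse, and its transcripts were held by few cells. It was found in 21 of 123 neural cells, or 17.1% (exact 95% interval 10.9 to 24.9), and in 9.33% of endothelial, 10.9% of microglial and 3.81% of mural cells. Thinned to 1500 transcripts these shares were 5.69%, 3.11%, 0.781% and 2.38%, so that the microglial share no longer exceeded the mural one. Neural plates held 53.2, 54.5 and 43.8 CPM. Endothelial plates held 15.6, 59.8 and 0, mural plates 31.7, 5.91 and 13.7, and microglial plates 7.4, 15.5 and 0 CPM. The neural gate exceeded the mean of the others by 1.38 log2 units (SE 0.407, adjusted p = 0.00471), with adjusted p from 8.44e-04 to 0.0958 over alternatives. DESeq2 gave 0.0802, and leaving out plate 1 gave 0.0958. Microglia were lower by -1.24 (adjusted p = 0.0448), a call lost without any 1 of the 3 plates (0.573, 0.151 and 0.0545), whereas microglia in bulk held the second highest level. The endothelial gate, lowest in bulk, was not called, at 0.636 (edgeR, adjusted p = 0.284), and 1 cell held 28 of its 53 transcripts.

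Within the neural gate *Ednrb* went with radial glia markers. Cells were split by whether the summed transcripts of 8 radial glia genes, *Fabp7*, *Slc1a3*, *Hes5* and others, exceeded those of 8 neuronal genes after thinning. *Ednrb* was found in 19 of the 39 cells above that limit, or 48.7% (exact 95% interval 32.4 to 65.2). It was found in 2 of the 84 other cells, or 2.38% (0.29 to 8.34). Median depth was alike, at 7639 and 7834 transcripts. By plate the shares were 55.6% against 2.63% on plate 1, 46.7% against 0% on plate 2, and 33.3% against 12.5% in the 6 and 8 cells of plate 3, where the intervals of 4.33 to 77.7 and 0.316 to 52.7 overlap widely. The former cells held 48 of the 51 *Ednrb* transcripts of the gate. Such a split is a range along 2 lists and does not define a cell type, and the lists were chosen with earlier results of these data known.

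The cells richest in *Ednrb* in other gates carried the same markers. The mural cell with 17 *Ednrb* transcripts, of the 26 in its gate, held none of the 5 mural markers and 20957 CPM of the radial glia list, against 2212 CPM over all mural cells. The endothelial cell with 28 of the 53 transcripts of its gate held 13581 CPM of the radial glia list, against 1527 CPM over the gate, beside 3838 CPM of endothelial markers. Without the cell with most *Ednrb* in each gate, the neural difference was 1.74 (adjusted p = 8.44e-04), mural cells were called lower, by -1.59 (adjusted p = 0.0279), and microglia were not called (adjusted p = 0.572). The 14 microglial cells with *Ednrb* held at most 2 transcripts each. They carried 6880 CPM of microglial markers, against 5655 CPM in microglia without it, and 892 against 495.7 CPM of the radial glia list. Both receptors were found together in 7 mural cells and in 1 cell of each other gate, whereas 161 mural cells held *Ednra* alone and 20 neural cells *Ednrb* alone.

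**Figure D3:**
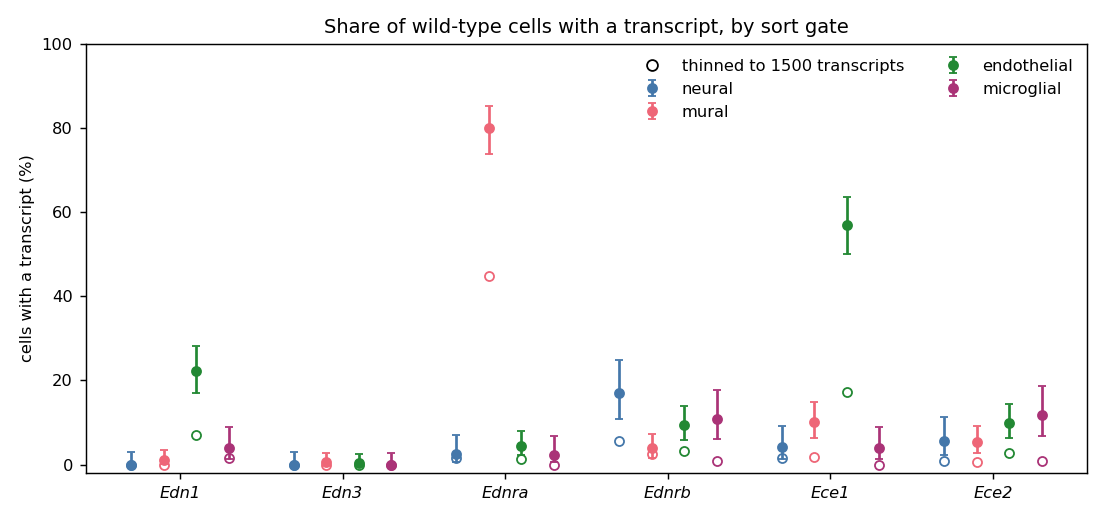
Share of wild-type cells (%) with at least 1 transcript of each member, by sort gate, with exact 95% intervals (filled points) and after thinning each cell to 1500 transcripts (open points). *Ednra* in mural cells (80%) and *Ece1* in endothelial cells (56.9%) stand above every other share.

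In the sums per gate and plate 4 of the 6 members passed the filter on low counts, and 9281 genes were tested. Members called higher were 1 in the neural gate (*Ednrb*, 22.5% of all genes), 1 in the mural gate (*Ednra*, 13.5%), 2 in the endothelial gate (*Edn1* and *Ece1*, 16.4%) and 1 in the microglial gate (*Edn1*, 22.2%). Members called lower were 3 in the neural gate (17.3% of all genes) and 3 in the microglial gate (21.2%). In the mural and endothelial gates none was called lower by edgeR, against 8.3% and 6.96% of all genes. No member there had a negative difference with an unadjusted p under 0.05, and DESeq2 called none.

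With all plates together, mural cells with a contractile transcript held more *Ednra*. In the 123 mural cells with any of *Acta2*, *Tagln*, *Myl9*, *Cnn1* and *Myh11* after thinning, *Ednra* was found in 86.2% (exact 95% interval 78.8 to 91.7) and stood at 4.85 transcripts per 10000. In the 87 cells with none it was found in 71.3% (60.6 to 80.5) and stood at 3.13 per 10000. On plate 1 the levels were 4.87 and 2.84, and on plate 2 they were 4.9 and 3.21. On plate 3, with 4 and 6 cells, they were 3.75 and 4.41, in the opposite order. The former cells were slightly shallower, with a median of 6530 transcripts against 7045. The intervals of the shares overlap slightly. The part of cells poor in mural markers in this split was not tested.

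Arterial markers did not separate endothelial cells by *Edn1* in the same way on each plate. Of the 96 endothelial cells with a transcript of 7 arterial genes, among them *Gja4*, *Sox17* and *Efnb2*, 24% held *Edn1*, against 20.9% of the other 129, and their levels were 0.787 and 0.438 transcripts per 10000. On plate 1 the shares were 32.7% and 10.3%, and on plate 2 they were 13.2% and 37%, in the opposite order. The levels followed, at 1.06 and 0.28 per 10000 on plate 1 and 0.407 and 0.717 on plate 2. *Ece1* was found in 58.3% and 55.8%, with intervals of 47.8 to 68.3 and 46.8 to 64.5.

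**Figure D4:**
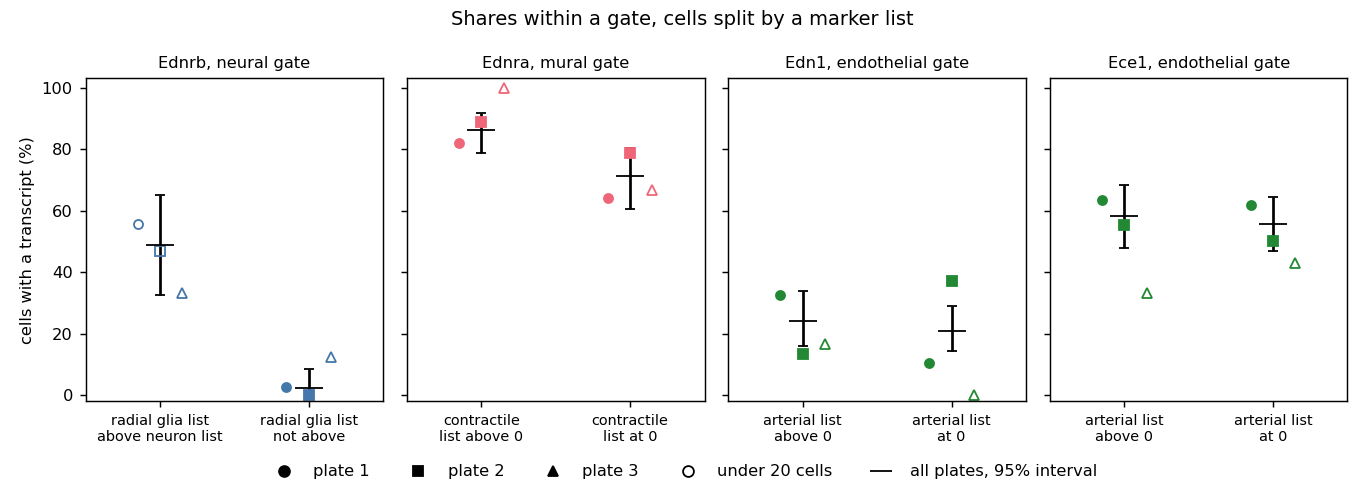
Share of cells (%) with a transcript of *Ednrb*, *Ednra*, *Edn1* or *Ece1* within 1 gate, split by a marker list after thinning, with plates as points (open where under 20 cells) and all plates with the exact 95% interval in black. *Ednrb* is found in 48.7% of neural cells whose radial glia list exceeds the neuronal list and in 2.38% of the others.

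The other 50 genes of the pathway were grouped by role, and 47 were tested in bulk. The list of 8 genes for peptide processing and breakdown was called higher in 5 of 6 tested genes in neural cells and lower in none, where 32.9% of all genes were called higher (median log2 difference 4.34, against 0.0855 over all genes). *Pcsk6*, a proprotein convertase, was higher there by 5.53 (adjusted p = 4.9e-04), and *Mme*, the protease neprilysin, by 4.86 (adjusted p = 0.0156). *Ecel1*, a relative of the converting enzymes, held 621 to 718 normalized counts in neural libraries and was listed at 0 in all 9 others. The levels of *Pcsk6* and *Mme* in 1 or more endothelial libraries overlapped the neural ones. None of the 6 was called higher in any of the other 3 populations, and 4 were called lower in the mural one (22.7% of all genes), 2 in the endothelial one (22.4%) and 2 in the microglial one (22.3%). Of the 3 genes tested in the single-cell sums (edgeR), *Furin* was lower in the neural gate by -1.74 (adjusted p = 0.0038) and higher in the microglial gate by 1.21 (adjusted p = 0.0051), and *Mme* differed in the neural gate by 0.0668 (adjusted p = 0.934).

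G proteins and effectors were called higher most often in endothelial cells, with 9 of 14 higher and 4 lower, against 19.7% and 22.4% of all genes (median 1.52, against -0.121 over all genes). *Itpr3* and *Itpr1*, calcium channels opened by IP3, were higher there by 5.57 (adjusted p = 6.06e-04) and 3.25 (adjusted p = 9.61e-05). *Itpr2* was higher in mural cells by 2.95 (adjusted p = 9.82e-07) and in endothelial cells by 2.6 (adjusted p = 2.22e-06), and lower in neural cells by -6.77 (adjusted p = 8.28e-10). In mural cells 3 of 14 were called higher and 5 lower (19.3% and 22.7% of all genes). *Plcb2*, a phospholipase C, was higher in microglia by 7.32 (adjusted p = 3.44e-05), where 4 were higher and 5 lower (23.4% and 22.3%). In neural cells 5 were higher and 4 lower (32.9% and 31.2%). In the single-cell sums 8 of 14 were higher and 2 lower in the endothelial gate, against 16.4% and 6.96% of all genes, with *Itpr3* higher by 4.87 (edgeR, adjusted p = 1.1e-08). There were 4 higher and 7 lower in the neural gate (22.5% and 17.3% of all genes), 4 and 1 in the mural gate (13.5% and 8.3%), and 4 and 5 in the microglial gate (22.2% and 21.2%).

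Among 11 genes that damp receptor signals, 2 were called higher in mural cells and 5 lower, against 19.3% and 22.7% of all genes. *Rgs5* and *Rgs4*, which speed the shut-off of Gq and Gi proteins, were higher by 10.6 (adjusted p = 7.44e-09) and 9.58 (adjusted p = 4.77e-04), and *Rgs5* is also one of the mural markers. *Arrb1*, an arrestin, was lower there by -4.36 (adjusted p = 4.68e-04). Neural cells had 4 higher and 2 lower (32.9% and 31.2% of all genes), endothelial cells 3 and 3 (19.7% and 22.4%), and microglia 4 and 6 (23.4% and 22.3%). In the mural gate of the single cells 3 of 11 were higher and 3 lower, against 13.5% and 8.3% of all genes, with *Rgs4* higher by 5.34 (adjusted p = 1.62e-20).

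Of 9 contractile targets 4 were called higher in mural cells and 1 lower, against 19.3% and 22.7% of all genes (median 1.34, against -0.105 over all genes). *Myl9* was higher by 7.94 (adjusted p = 1.04e-07), *Mylk*, the kinase that phosphorylates myosin light chain, by 6.72 (adjusted p = 1.23e-06), and *Acta2* by 6.63 (adjusted p = 2.27e-04). *Myh11*, smooth muscle myosin, spread from 2 to 240 normalized counts over the mural libraries and was not called (adjusted p = 0.132). Neural cells had 0 higher and 6 lower (32.9% and 31.2% of all genes), endothelial cells 4 and 0 (19.7% and 22.4%), and microglia 3 and 3 (23.4% and 22.3%). In the single-cell sums 3 of 5 were higher in the mural gate (13.5% of all genes), all 5 were lower in the neural gate (17.3%), and 2 were higher and 2 lower in the microglial gate (22.2% and 21.2%). None was called in the endothelial gate (16.4% and 6.96%), where *Mylk* differed by 0.744 (adjusted p = 0.205).

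The list for the relaxing response held 7 genes. The enzymes that make the vasodilators nitric oxide and prostacyclin were endothelial: *Nos3* was higher there by 10.8 (adjusted p = 1.6e-06) and *Ptgis* by 9.43 (adjusted p = 7.91e-06). The subunits of soluble guanylate cyclase, the nitric oxide sensor, were mural: *Gucy1a1* was higher by 9.46 (adjusted p = 2.57e-04) and *Gucy1b1* by 8.36 (adjusted p = 2.46e-04). In all, 4 of the 7 were called higher in mural cells and 3 lower, where 19.3% and 22.7% of all genes were. In endothelial cells 2 were higher and 1 lower, or 2 and 2 with the brain as a replicate block, where 19.7% and 22.4% of all genes were called without the block. In microglia *Ptgs1*, a cyclooxygenase, was higher by 10.3 (adjusted p = 3.35e-05) and the other 6 were called lower (22.3% of all genes), whereas neural cells had 0 higher and 3 lower (32.9% and 31.2%). In the single-cell sums (edgeR) 4 of 6 were higher and 1 lower in the mural gate, against 13.5% and 8.3% of all genes. The neural gate had 0 higher and 4 lower (22.5% and 17.3%). In the endothelial gate 1 was higher and 0 lower (16.4% and 6.96%), with *Nos3* higher by 6.83 (adjusted p = 1.12e-24). In the microglial gate 1 was higher and 3 lower (22.2% and 21.2%), with *Ptgs1* higher by 7.22 (adjusted p = 1.09e-28).

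**Figure D5:**
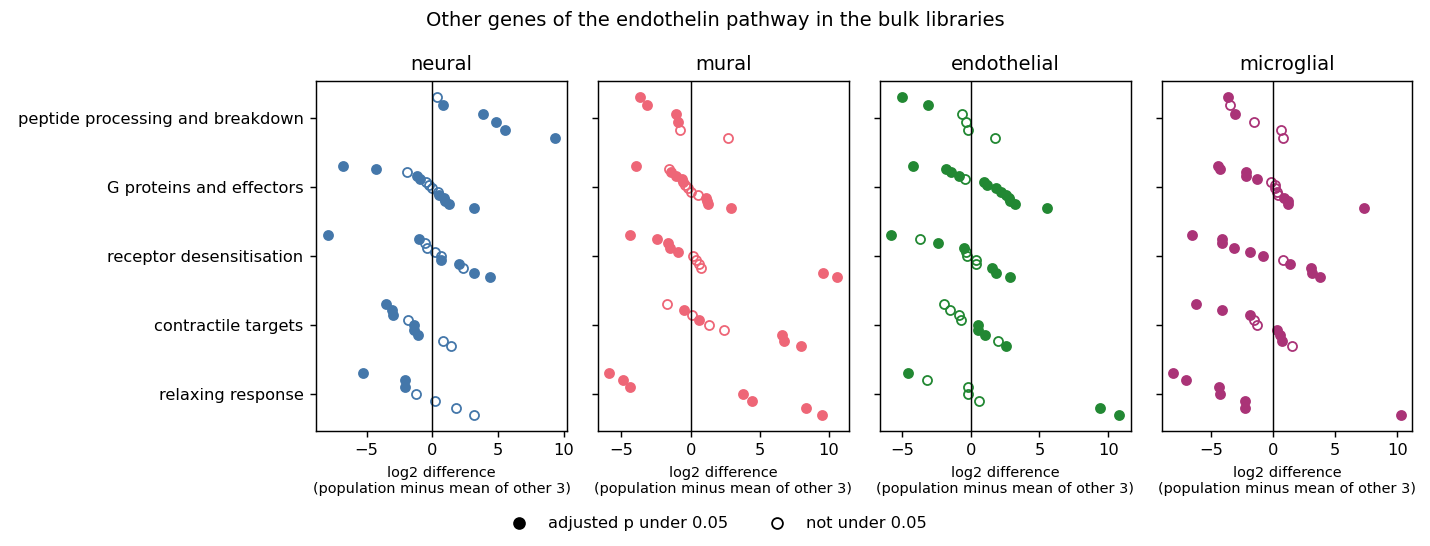
Log2 difference of each of 47 pathway genes in a bulk population against the mean of the other 3, by list, with filled points for an adjusted p under 0.05. Soluble guanylate cyclase subunits, *Rgs4* and *Rgs5* lie far to the right in mural cells, and *Nos3* and *Ptgis* in endothelial cells.

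Across the 12 libraries the protein-coding genes whose log2 levels followed a member most closely were found by Pearson's r, as a description over libraries that share 4 populations. For *Ednra* they were *Rarres2* (r = 0.993), *C1qtnf2* (0.989) and *Tbx18* (0.989), the last a transcription factor known from pericytes. For *Ece1* they were *Slc38a5* (0.979), *Car5a* (0.979) and *Efna1* (0.977). For *Edn1* they were *2510002D24Rik* (0.968), *Abhd6* (0.961) and *Icam2* (0.960), the gene of the CD102 antigen used to sort endothelial cells. For *Ednrb* they were *Polq* (0.988), *Polm* (0.978) and *Sall1* (0.954), for *Ece2* *Nphp4* (0.964), *Nsd3* (0.945) and *Pcsk2* (0.933), and for *Edn3* *Vmn1r90* (0.877), *Foxr2* (0.856) and *Pcdhb4* (0.849). Of the *Edn3* reads in all 12 libraries, most were in Mu-340.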

How the data were processed

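Bulk RNA-seq and mCEL-Seq2 single-cell RNA-seq of sorted E14.5 brain cells were used. The deposited bulk table holds normalized counts by the authors, a signal on a linear scale in which each value is a whole number of reads times 1 factor per library. All 124078 values up to 100 reads were whole within 0.01. The deposited single-cell tables hold the authors' expected counts of transcripts, corrected for identifiers drawn more than once. The submitters' processing notes name BWA 0.6.2-r126, STAR, featureCounts, DESeq2 and the build mm10, without roles. Neural libraries were made with the TruSeq kit and the others with SMART-Seq v4 and Nextera XT.

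Genes were matched to GENCODE vM21 (53360 of 53465). Bulk populations were compared with limma 3.58.1 (R 4.3.3, trend in the prior variance) on log2(normalized count + 1), for genes with a mean of at least 10 over all 12 libraries. Single-cell values were summed per gate and plate over cells with more than 1500 transcripts, rounded, and compared with edgeR 4.0.16 (quasi-likelihood test, TMM, its own filter on low counts). Both tests were two-sided with Benjamini-Hochberg adjustment over all genes, and calls needed an adjusted p under 0.05. Both fits were tested on simulated data. edgeR and DESeq2 1.42.0 on the recovered reads, and DESeq2 on the sums, were alternatives. Bulk precision follows from the reads per library. Shares have exact Clopper-Pearson 95% intervals, which cover counting error only. Libraries of 1 number were paired because the bulk libraries are described as coming from 3 brains. Their deviations from the population means correlated by -0.0540 to 0.0801. The fit was made without this block, as designed, and repeated with it. Plates, whose labels name no brain, were the replicates of the single-cell sums, so p-values there measure the spread between plates. Python 3.11.15, numpy 2.4.6, pandas 2.3.3, scipy 1.17.1 and matplotlib 3.10.9 were used.

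The members and all gene lists were chosen with earlier results of these data known. The genes named are the 6 members, examples with large differences from lists set by role, and the 3 genes most like each member. Other pathway examples follow the largest absolute difference in a contrast, except where a gene was named for its role after its values were seen. Knockout plates, whose gates are not recorded, entered no test, and their values are given beside those of the wild-type plates. Promoter windows are from RefSeq (GRCm38.p6).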

Additional observations from a re-analysis of the deposited data

Results flagged for a closer look

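In the 23 cells of the PDGFRβ medium or low gate, which entered no test, *Ednrb* stood at 531 CPM (87 transcripts), against 52.9 CPM in the neural gate. Most came from plate 1, with 83 transcripts in 8 of 14 cells, against 4 in 1 of 9 cells on plate 2. The 6 cells with 5 or more transcripts, all on plate 1, held 23145 CPM of the radial glia list and 355.2 CPM of the mural list, and none of the 8 neural crest genes in the files. *Ednra* stood at 152 CPM in the same gate.

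The labels give the knockout plates the genotype *Mof* knockout and no sort gate, so that genotype and cell makeup cannot be told apart. *Kat8*, which encodes MOF, stood at 12.7, 10.4 and 11.2 CPM on plates 4, 5 and 6, against 16.3 to 17.6 CPM on the wild-type plates. Plate 4 held 283.4 CPM of *Ednra* and 194.6 CPM of *Ednrb*, against at most 143.4 and 52.13 CPM on a whole wild-type plate, with 8021 CPM of mural markers and 4584 CPM of the radial glia list, which stood at 2212 CPM in the wild-type mural gate. Plate 5 held 53.72 CPM of *Ednrb*, with 2030 CPM of microglial markers, 1236 CPM of neural ones and 1801 CPM of the radial glia list. Plate 6 held 67.33 CPM of *Edn1* and 142.4 CPM of *Ece1*, against at most 22.32 and 66.96 CPM, with 2688 CPM of endothelial markers. The mural gate alone held 408 CPM of *Ednra* and the endothelial gate 170 CPM of *Ece1*, both above the knockout plates. The endothelial gate held 57.6 CPM of *Edn1*, below plate 6, and the neural gate 52.9 CPM of *Ednrb*, below plates 4 and 5. These differences were not tested.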

How the results depend on the processing

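*Ednra* in mural cells, and *Edn1* and *Ece1* in endothelial cells, were called in all 24 bulk alternatives, and no call changed direction. In mural and endothelial cells the number of members called higher in bulk did not change. In neural cells it fell from 2 to 1 with a minimum mean of 50 (*Ece2* no longer tested), quantile normalization, a 10-fold threshold and DESeq2, which gave *Ednrb* no adjusted p. Leaving out libraries gave 1 to 2 members in neural cells. In microglia it was 1 in place of 0 with a pseudocount of 5 (*Edn1*), and 0 to 1 when libraries were left out. Each single library left out, and each cell with most transcripts left out, were alternatives chosen after seeing the data. In the single-cell sums DESeq2 called 0 members in the neural and 0 in the microglial gate, where edgeR called 1 and 1. Thinning left only *Ednra* to test, so the neural, endothelial and microglial gates had 0. Leaving out a plate gave 0 to 1 members in the neural, 1 to 2 in the endothelial and 0 to 1 in the microglial gate. The lower counts in the endothelial and microglial gates arose where *Edn1* did not pass the filter on low counts and was not tested. In the endothelial gate *Edn1* kept its call in all 7 alternatives that tested it (adjusted p at most 7.88e-06). In the microglial gate it lost its call in 2 of 7, neither of which left out a plate. Without the cell with most transcripts in each gate the microglial gate had 0. The cause of the other changes was not tested. With the brain as a replicate block the counts were 2, 1, 2 and 0 in neural, mural, endothelial and microglial cells, and no member's call changed other than the 2 given with their values. With the plate as a replicate block the gates had 1, 1, 2 and 1 members. Without the neural libraries 2265 genes in place of 3892 were higher in endothelial cells. Quantile normalization moved the median of all genes in neural cells from 0.0855 to -0.163. For single members in bulk 87 tests lost a call under an alternative, 14 gained one and the other 1053 stayed on the same side of the threshold, called or not. Thinning lowered the shares of cells.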
